A study of Mus musculus with 8 samples.

Results

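The regions described here are TET1-bound stretches that were called as 1 peak in untreated chromatin and as separate peaks after nuclease treatment. Peaks of 6 deposited lists that overlapped or touched were merged, which gave 134739 regions on chromosomes 1 to 19. A region was taken as fragmented if each of the 3 mock lists held exactly 1 peak under 2000 bp in it and at least 2 of the 3 nuclease-treated lists held 2 or more. This rule found 536 regions. The mirror image, with 1 peak under 2000 bp in each nuclease-treated list and 2 or more in at least 2 mock lists, found 242 regions and is called the reverse class.

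The cells were mouse embryonic stem cells of genotype HA-Tet1, in which the endogenous TET1 carries an HA tag. Their line is named E14TG2a in the design text, whereas C57BL/6N stands as strain in the labels. All cells were permeabilised. Those of the treated group then spent 20 min with RNase H1 (0.2 U/ul) and Nuclease S1 (0.05 U/ul), the mock group had neither enzyme, and both groups were crosslinked afterwards with disuccinimidyl glutarate and formaldehyde. Each group had 3 libraries of chromatin precipitated with an HA antibody, and a single pooled input per condition served all 3. The agent label of the treated samples names RNAse H1 alone, and no sample received 1 enzyme without the other. Nothing in the labels says that replicates were separate cultures, so a p-value here measures the spread between these libraries, which may be technical.

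TET1 is a dioxygenase that oxidises 5-methylcytosine, the first step of active DNA demethylation, and in embryonic stem cells it is found mainly at CpG-rich promoters and other regulatory elements. RNase H1 degrades RNA that is paired with DNA, and Nuclease S1 cuts single-stranded nucleic acid. Together they attack R-loops, in which a nascent RNA pairs with one DNA strand and leaves the other unpaired. The comparison asks how TET1 on chromatin differs once such structures have been exposed to both enzymes. R-loops themselves were not analysed here. Positions are on mm9 and count from 1. Neither the genome nor the gene models of mm9 were used, so regions are named by position only.

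The lists held 62161 to 83601 peaks, and their typical summit was covered by 16 to 18 fragments over a genome-wide background of 1.93 to 2.253. Coverage below means fragments at the summit relative to that background in the same library, written as times background. The peaks of a list never lay closer together than 236 to 252 bp in mock or 245 to 250 bp in treated lists. In every list that smallest gap was 1 bp longer than the shortest peak. A dip narrower than this leaves a peak whole, and how low coverage fell inside a gap is not recorded in the lists.

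The 536 fragmented regions were 1.66% of the 32210 regions that could have met the rule, namely those with 1 mock peak under 2000 bp in each mock list and a peak in at least 2 treated lists. The reverse class made up 0.958% of 25249 such regions. Of the 536, 109 were split in all 3 treated lists (0.466% of 23408 regions with a peak in all of them, against 29 of 22675 or 0.128% for the reverse) and 427 in exactly 2. The rule used these same peak calls, so the counts describe the choice and carry no test. A further 1496 regions were split in just 1 treated list and stayed outside the class. Treated replicates 1, 2 and 3 showed the split in 406, 393 and 382 of the members, so no single library supplied the class. The widest mock peaks just inside the width limit measured 1998, 1994 and 1994 bp, and those just outside measured 2005, 2007 and 2012 bp. Another 354 regions met the rule except for a wider mock peak. Chromosome 18 held 11 members, which are counted but not named.

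The excess of fragmented over reverse regions was 2.21 to 1 in counts, from unlike eligible sets of 32210 and 25249 regions. It depended on which peaks and libraries entered. Keeping only peaks with a −log10 q of at least 6.59 turned it to 107 against 149 regions. Limiting the single peak to 1000 bp gave 32 against 101. Counting only pieces that overlap all 3 single peaks gave 384 against 25. Without nuclease replicate 1, 2 or 3 the order turned, to 237 against 406, 254 against 408 and 262 against 408. Without mock replicate 1, 2 or 3 the counts were 738 against 65, 704 against 79 and 682 against 86. With a library left out, both remaining libraries of its group must be split for one class and single for the other, so these counts shift by construction.

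**Figure D1:**
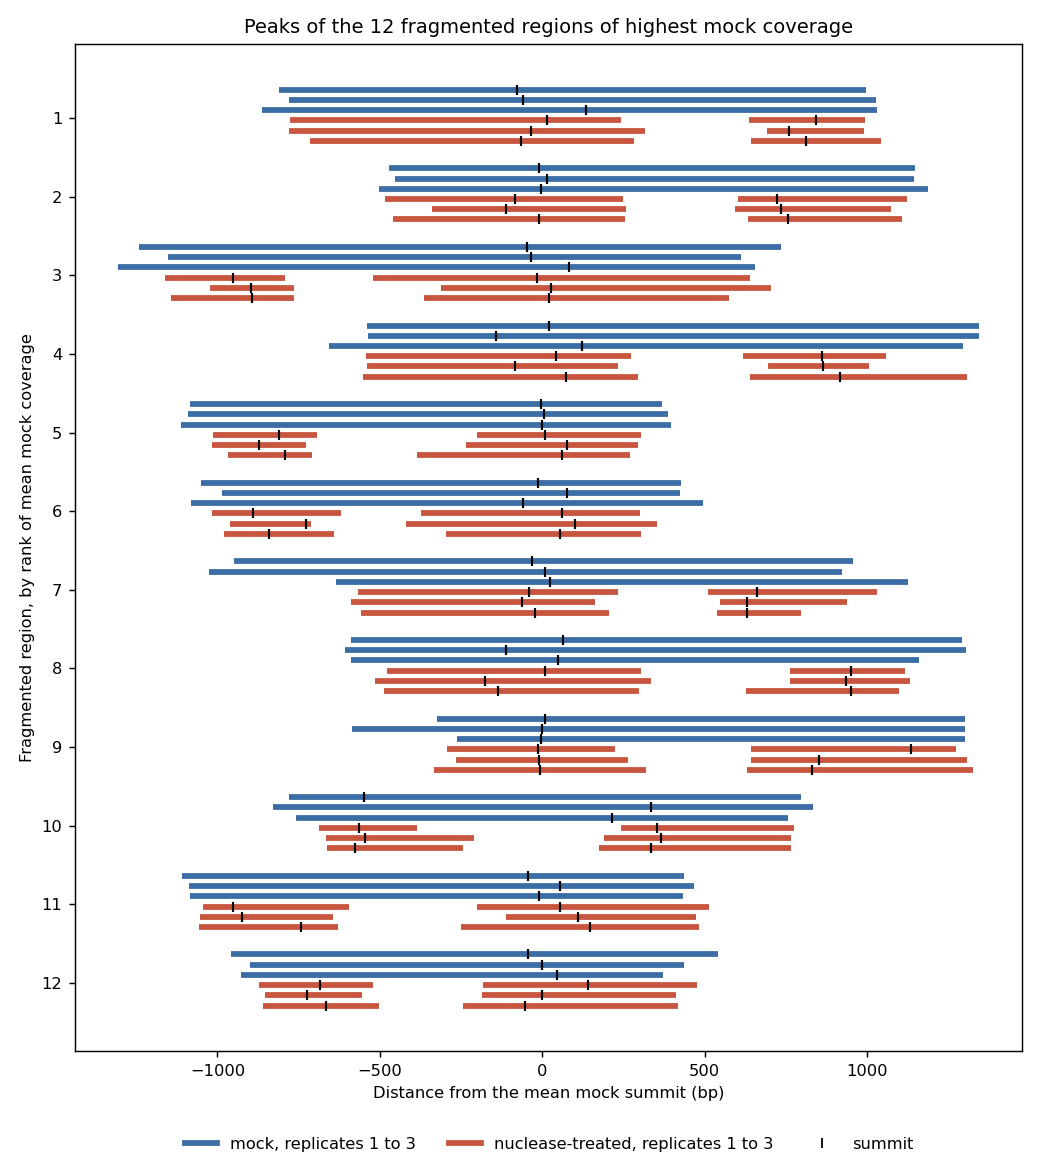
Peak intervals of the 12 members of highest mock coverage among those split in all 3 treated lists, 1 group of 6 bars per region. The horizontal axis is the distance in bp from the mean mock summit, blue bars are mock replicates 1 to 3 from top to bottom, red bars are nuclease-treated replicates 1 to 3, and ticks mark summits; in each region the red bars leave out a stretch that the blue bars cover.

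The strongest member split in all 3 treated lists lay on chromosome 6 from 128387527 to 128389432. Its mock peaks reached 53.7, 43.9 and 41.8 times background in replicates 1, 2 and 3, with a mean width of 1835 ± 51.7 bp (SD, n = 3). After treatment its highest piece stood at 30.4, 42.0 and 33.1 times background and its other piece at 13.8, 9.85 and 13.4. Mock and treated highest values overlapped slightly in this region, since 1 treated library exceeded 1 mock library. The pieces were separated by 392, 377 and 362 bp, and all 3 gaps shared the 321 bp from 128388706 to 128389026. All 9 placements of a mock summit among the pieces of a treated library fell in the highest piece.

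A member on chromosome 4 from 155134534 to 155136223 differed more in height. Mock coverage was 44.8, 47.9 and 34.7 times background, and the highest piece reached 23.7, 15.6 and 17.4. The groups did not overlap here. Members of this rank were named for high mock coverage, which favours mock values above treated ones, so the difference carries no test. The other piece stood at 9.97, 8.81 and 6.70 times background, and the gaps of 353, 336 and 377 bp had 336 bp in common. A member on chromosome 14 from 122196427 to 122197936 behaved alike, with mock values of 42.6, 43.9 and 32.4 and highest pieces of 17.1, 17.1 and 18.3 times background. Its gaps measured 494, 493 and 323 bp.

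Further members of this rank were on chromosome 1 from 193729753 to 193731792 (41.5 ± 5.03 times background in mock, SD, n = 3) and on chromosome 7 from 38891527 to 38893529 (40.1 ± 0.708, SD, n = 3). On chromosome 12, the member from 17551015 to 17552591 had 36.8 ± 4.79 times background in mock, and on chromosome 16 that from 22438454 to 22440604 had 36.1 ± 1.71 (SD, n = 3 each). In 11 of the 12 strongest members all 9 placements of the mock summit were in the highest piece. In the layout of the 12 strongest members, these 11 have their higher piece at the mock summits and a lower piece to 1 side.

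The exception among the 12 was on chromosome 15 from 88581361 to 88583024. Its mock coverage was 26.2, 26.0 and 44.1 times background, and the pieces after treatment stood at 17.1 and 13.8 in replicate 1, 18.7 and 14.0 in replicate 2 and 15.6 and 10.3 in replicate 3. Only 5 of 9 placements put the mock summit in the highest piece, and 1 put it in the gap. The mock summits themselves lay on opposite sides of the later gap in different mock libraries.

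Over all members, mock peaks were wide and above the typical height. The median mock peak measured 1415 ± 24.5 bp and reached 16.0 ± 0.256 times background (SD over library medians, n = 3). Regions with exactly 1 peak in all 6 lists, called unsplit here, numbered 21573 and had medians of 697 ± 11.1 bp and 12.4 ± 0.175 times background in mock (SD, n = 3 each). Width entered the rule, since 2 pieces and a gap need room.

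The share of eligible regions that was fragmented was higher in each successive width class of the mock peak. It was 0.139% for a mean mock width of 400 to under 600 bp (14 of 10104; 95% Wilson interval 0.0826 to 0.232%) and 1.05% at 800 to under 1000 bp (48 of 4552; 0.796 to 1.40%). At 1600 to under 2000 bp it was 18.2% (149 of 817; 15.7 to 21%). The reverse share was also higher in each successive class up to 1200 to under 1400 bp, from 0.305% under 400 bp (15 of 4919; 0.185 to 0.503%) through 1.74% at 800 to under 1000 bp (53 of 3043; 1.33 to 2.27%) to 2.50% (18 of 721; 1.58 to 3.91%). In the last 2 classes it was 2.28% (9 of 394; 1.21 to 4.28%) and 0.758% (2 of 264; 0.208 to 2.72%), where the intervals are wide. Up to 1000 bp the reverse share was the higher of the pair in each width class. All these intervals cover counting error only.

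**Figure D2:**
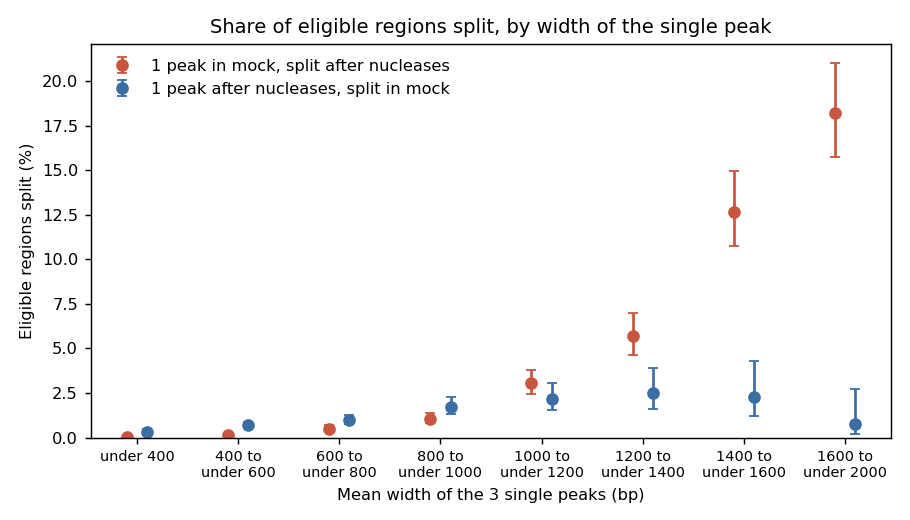
Percent of eligible regions that were split (vertical axis) by the mean width in bp of the 3 single peaks (horizontal axis), with 95% Wilson intervals. Red points are regions with 1 mock peak that were split after nucleases and blue points the reverse; the red share reaches 18.2% in the widest class while the blue share is at most 2.50%.

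The share was also higher at higher mock coverage, going from 0.666% of regions at 5 to under 10 times background (91 of 13654) to 3.52% at 20 to under 30 (127 of 3604). For the reverse class the share was 1.12% (163 of 14601) in the first and 0.533% (4 of 751) in the second of these coverage classes. Width and coverage were not separated in these shares. At mean mock widths of 1400 to under 1600 bp, members had lower mock coverage than unsplit regions, at medians of 18.8 and 21.6 times background.

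The name fragmented fits most of the members, though not all. In 381 of the 536 members (71.1%), every mock peak was overlapped by at least 2 pieces in every split library. In 11 members no mock peak overlapped 2 pieces of any treated library, so the second piece was a neighbouring peak joined to the region through another list. In the reverse class 24 of 242 regions (9.92%) had 2 mock pieces overlapping every nuclease-treated peak. Those single peaks were narrower, at a median of 733 bp against 1415.5 bp for the single peaks of the fragmented class. With pieces required to overlap all 3 single peaks, 384 regions were fragmented (1.21% of 31806) and 25 were reverse (0.101% of 24858).

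The outer borders of the members hardly moved at the median, though the span of the treated pieces ranged from 0.437 to 6.61 of the mock width. From the first to the last piece, the treated peaks spanned a median of 0.967 of the width of the mock peak (quartiles 0.886 and 1.13), and the left and right edges lay 32 and 24 bp further in. The pieces alone added up to 0.724 of the mock width (quartiles 0.627 and 0.852). By these medians, most of the called sequence that members lost was internal, which a choice of split regions favours. In the reverse class the mock pieces reached beyond the nuclease-treated peak, with a median outer span of 1.99 times its width.

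Gaps were short and central. Across 1181 splits the median gap was 339 bp (quartiles 289 and 423, range 245 to 1537 bp), and the medians of the 3 treated libraries gave 339 ± 4.48 bp (SD, n = 3). Gaps under 300 bp made up 31.2% and those of 500 bp or longer 13.1%. Gap length equalled a median of 25.6% of the mock peak width, over all comparisons, including gaps not wholly inside the mock peak. In 84.6% of the comparisons between a split and a mock peak the whole gap lay inside the mock peak. There, the middle of the gap sat at a median of 0.495 of the way along the mock peak (quartiles 0.418 and 0.573). Pieces of at least 244 bp on either side leave little room for a gap near the ends of a peak under 2000 bp. A central position is thus partly built into the choice.

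Gap length was much the same in the reverse class, at 336 ± 16.6 bp (SD over the medians of 3 mock libraries), but fewer gaps lay inside the single peak. The whole gap lay inside the nuclease-treated peak in 34.2% of the reverse comparisons. In these, its middle sat at a median of 0.515 of the way along (quartiles 0.422 and 0.618), close to the fragmented class. The single peaks of the reverse class were narrower, at a median of 733 bp against 1415.5 bp in the fragmented class. This leaves less room for a gap inside, and the classes were not compared at like width. Across the 536 members, mean gap length showed almost no relation to mean mock width (Pearson r = -0.0198, Spearman rho = 0.0132) or to mean mock coverage (r = -0.112, rho = -0.0836). These coefficients describe regions that share the same 6 libraries.

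**Figure D3:**
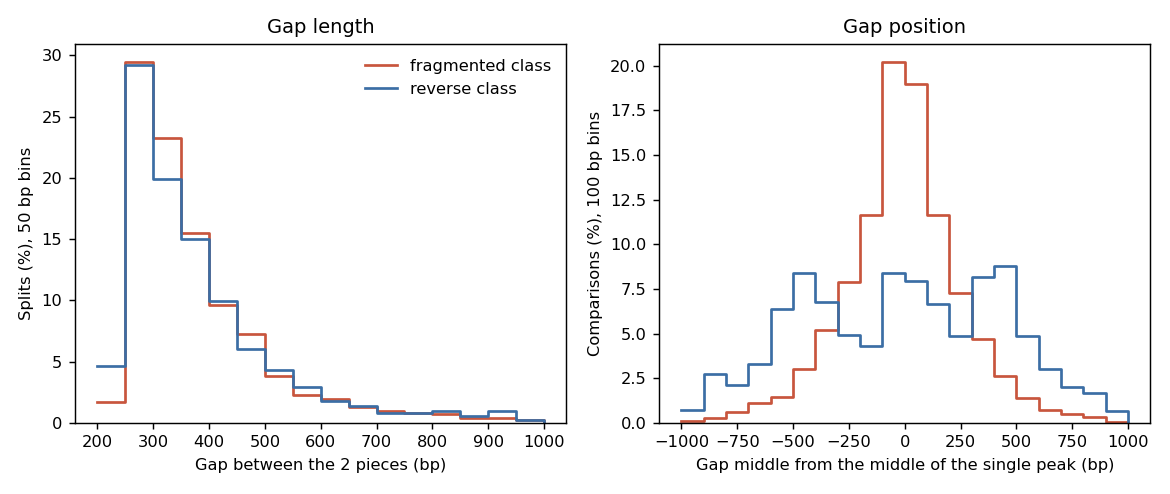
Left, percent of splits by gap length in 50 bp bins; right, percent of comparisons by the distance in bp from the middle of the single peak to the middle of the gap, in 100 bp bins. Red is the fragmented class and blue the reverse class: the gap lengths of both pile up between 250 and 400 bp, while red gaps gather at the centre of the single peak and blue gaps also form humps to either side of it.

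The gap recurred at the same place in different libraries. When a member was split in 2 treated libraries, their gaps overlapped in 713 of 754 pairs (94.6%), and the gap middles lay a median of 49 bp apart (quartiles 21.5 and 99.5). In 104 of the 109 members split in all 3 libraries the 3 gaps had bases in common, with a median of 271.5 shared bp. The reverse class gave 275 of 300 pairs (91.7%) and 24 of 29 regions. Since the region must be split in each library to be counted, and must hold room for 2 peaks, overlap of gaps is partly built into the choice.

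For the 427 members split in exactly 2 libraries, the remaining treated library had 1 peak across the middle of the gap in 250, 1 peak lying to a side of it in 157 and no peak in 20. Only the position of the gap middle was checked. Whether the first kind spanned both pieces, or the second overlapped either piece, was not measured.

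The 6 members with the longest gaps had mean gaps of 564 to 769 bp, and in 4 of them 2 pieces overlapped every mock peak. The longest, on chromosome 13 from 104710096 to 104712044, had gaps of 831, 885 and 590 bp in treated replicates 1, 2 and 3, with 524 bp shared from 104710981 to 104711504. Its mock peaks of 16.0, 19.7 and 23.0 times background became highest pieces of 13.3, 9.33 and 16.1. A member on chromosome 8 from 13003362 to 13005581 had gaps of 1090, 569 and 509 bp. Its mock peaks measured 1547, 634 and 765 bp, and those of mock replicates 2 and 3 did not reach the second treated piece, so this region was not a division of all 3 mock peaks. On chromosome 12 from 73185536 to 73187472 the gaps were 348, 745 and 734 bp and all 9 mock summit placements stayed in the highest piece.

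The higher of the 2 pieces usually kept the mock summit. Every mock summit was placed among the pieces of every split treated library, in 3543 comparisons. By treated library, 71.2 ± 1.78% of mock summits fell in the highest piece, 23.2 ± 1.24% in another piece, 4.92 ± 0.714% in the gap and 0.708 ± 0.220% outside (SD, n = 3 each). For scale, a mock summit in a member fell inside the peak of another mock library in 97.9% of cases on average (range of the 6 ordered pairs 96.8 to 98.9%). It fell inside any peak of a treated library in 93.2% (range over 9 pairs 88.2 to 95.8%). In unsplit regions with a mean mock width of 1000 to under 2000 bp, a mock summit fell inside the single treated peak in 96.8% (range over 9 pairs 94.6 to 98.0%). These shares count any peak, whereas the 71.2% is for the highest piece alone. All mock summits fell in the highest piece of all split libraries in 227 members, and none did in 23.

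**Figure D4:**
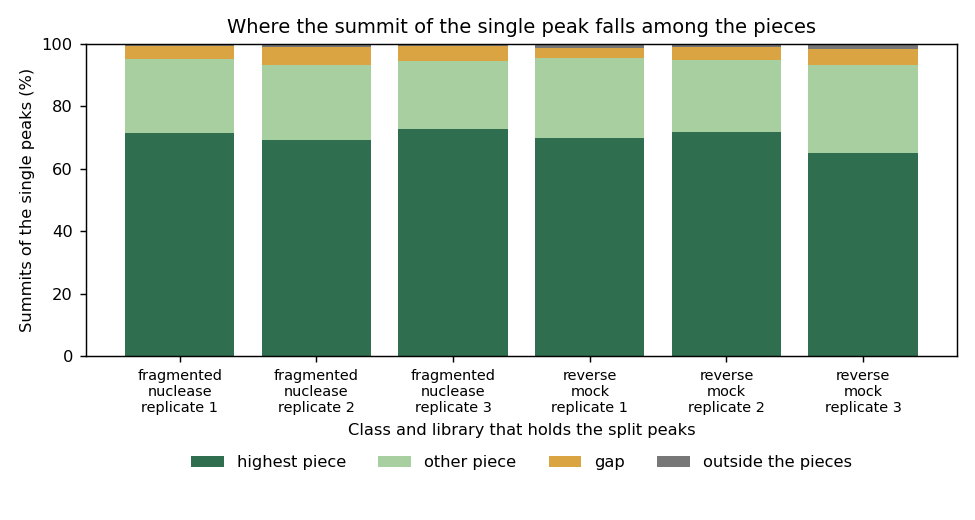
Stacked percent of single-peak summits that fell in the highest piece, another piece, the gap or outside the pieces, for each library holding the split peaks. The first 3 bars are fragmented regions in nuclease-treated libraries and the last 3 the reverse class in mock libraries; the highest piece holds 65.1 to 72.7% in all 6 bars.

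The reverse class split its summits in nearly the same proportions, with 69.0 ± 3.51% of nuclease-treated summits in the highest mock piece and 4.10 ± 0.968% in the gap (SD, n = 3 each). The difference between the classes was not tested.

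The 2 pieces were unequal in most splits. The highest piece was picked by its coverage, so some inequality is built in. The highest piece had a median width of 531 bp and the other 395 bp, and the other reached a median of 0.739 of the coverage of the highest (quartiles 0.600 and 0.870). Their summits lay a median of 829 bp apart. The medians of the treated libraries were 11.2 ± 0.242 times background for the highest piece and 7.99 ± 0.36 for the other (SD, n = 3 each). The highest piece stood on the lower-coordinate side in 51.2% of splits, so neither side prevailed. It stood on the same side in every split library in 361 of the 536 members (67.4%).

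Mock summits in members were often on different sides in different mock libraries. Mock summits of 2 libraries lay 500 bp or more apart in 165 members (30.8%) and in 1001 of the 21573 unsplit regions (4.64%). At matching mean mock widths of 1400 to under 1600 bp the shares were 43 of 122 members (35.2%) and 114 of 635 unsplit regions (18.0%). In 160 members (29.9%) the mock summits fell in different pieces of the same treated library, and in 312 (58.2%) all 3 fell in the same piece throughout. These shares describe a class chosen for its peak calls and carry no test.

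Of the 108 members split in all 3 treated libraries and not on chromosome 18, 21 had the mean position of their mock summits inside all 3 gaps. In all 21 the mock summits lay 500 bp or more apart, and just 4 of their 189 summit placements were in a gap. The mean position fell in the gap because summits stood on both sides of it. An example on chromosome 12 from 16900908 to 16902539 had mock peaks of 19.5, 17.5 and 23.9 times background. Its treated pieces reached 12.3 and 9.97, 11.9 and 11.4, and 14.3 and 9.83 in replicates 1, 2 and 3, with 468 bp shared by the gaps. On chromosome 13 from 23852499 to 23854318, mock peaks of 26.6, 20.2 and 20.2 times background gave treated highest pieces of 16.1, 10.4 and 9.83, and 5 of 9 placements were in the highest piece.

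Treated summits were lower than mock summits by a like factor in members and in unsplit regions of similar width. At mean mock widths of 1400 to under 1600 bp, members had a median of 18.8 ± 0.623 times background in mock and 11.95 ± 0.0953 after treatment (SD over library medians, n = 3 each). Unsplit regions of that width had 21.6 ± 0.387 and 14.3 ± 0.376 (SD, n = 3 each). The treated mean over the mock mean was a median of 0.665 in members (quartiles 0.587 and 0.775) and 0.673 in unsplit regions (quartiles 0.596 and 0.774). Members thus started lower and ended lower, with a like proportion left at the summit. The widest treated peak measured 686 ± 45.2 bp in these members and 1300 ± 40.6 bp in the unsplit regions (SD, n = 3 each), as the rule requires. Because the class was chosen on this contrast, these values are given without a test.

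The local background that the peak caller set against each summit was also higher after treatment. Its median in members was 1.28 ± 0.0130 times the genome-wide level in mock and 1.72 ± 0.0274 in treated libraries (SD, n = 3 each). In unsplit regions it was 1.25 ± 0.00674 and 1.54 ± 0.0102, and in unsplit regions of 1400 to under 1600 bp 1.39 ± 0.0243 and 1.81 ± 0.0204 (SD, n = 3 each). A higher local background raises the coverage that a position needs to be called. The libraries of a group shared 1 input, so treatment and input cannot be told apart here, and the part of the local background in the splits was not tested. With peaks limited to a local background of 2 times the genome-wide level, a setting added after seeing the data, 318 fragmented and 278 reverse regions were found.

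The split itself was then read in libraries that had no part in picking the regions. The rule was set with earlier results of these data known, so this reading is not independent of it. Regions were merged and chosen on 2 mock and 2 treated libraries, with 1 peak under 2000 bp in both mock and 2 or more in both treated, and the held-out library of each group was examined. All 9 such choices were made, with 308 to 364 regions each, and 89 to 153 for the mirror choice. In each of the 9 choices the fragmented set was the larger. A library value below is the mean over the 3 choices in which it was held out.

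Of the chosen regions with a peak in the held-out library, 2 or more peaks were found in 24.9, 23.1 and 19.9% in mock replicates 1, 2 and 3. The held-out treated replicates 1, 2 and 3 had 52.2, 48.7 and 46.6%. All 3 treated values lay above all 3 mock values. The means were 22.6 ± 2.57% and 49.2 ± 2.86% (SD, n = 3 each), a difference of 26.5 percentage points (exact two-sided permutation p = 0.1, the smallest that 3 against 3 allows, and 0.15 after Benjamini-Hochberg adjustment over 3 tests). The direction turned with the single peak limited to 1000 bp, where the difference was -15.7 points (exact permutation p = 0.1). Of the 536 members, 438 had a mean mock width of 1000 bp or more.

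For the reverse choice the held-out mock libraries were split in 52.7, 42.1 and 41.3% and the held-out treated libraries in 45.5, 44.5 and 43.4%. The groups overlapped. The means were 45.4 ± 6.39% and 44.4 ± 1.02% (SD, n = 3 each), which differ by less than the spread between libraries (difference of -0.934 points, exact two-sided permutation p = 1, also after adjustment). The groups did not overlap under 3 of the alternatives, which differed in direction (exact permutation p = 0.1 in each, the smallest possible). With peaks of −log10 q of at least 6.59 only, the means were 50.7% in mock and 33.4% after treatment. With peaks within 300 bp joined they were 48.1 and 42.2%. With the value of mock replicate 1 dropped from the mean they were 41.7 and 44.4%, a difference of 2.75 points. That library still took part in choosing regions. Regions unsplit in the 4 chosen libraries were split in 1.39 ± 0.317% of held-out mock and 2.30 ± 0.118% of held-out treated cases (SD, n = 3 each).

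**Figure D5:**
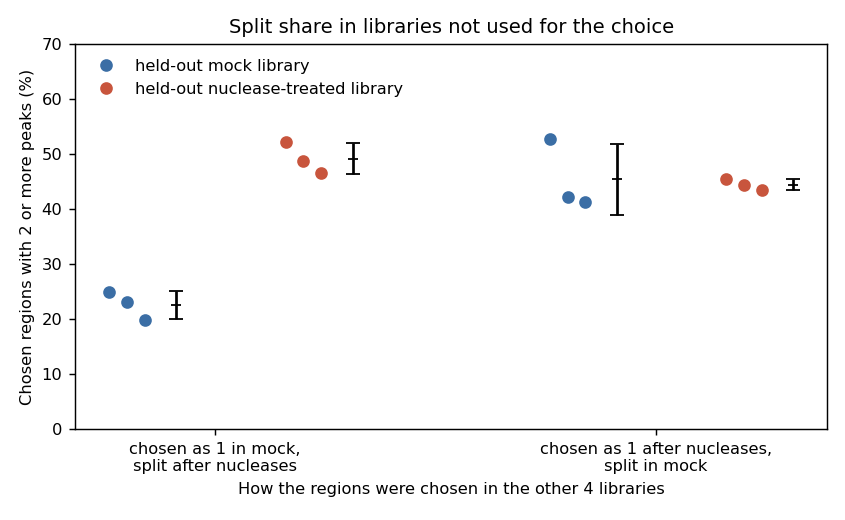
Percent of chosen regions with 2 or more peaks in the library left out of the choice (vertical axis), for regions chosen as 1 peak in mock and split after nucleases (left) or the reverse (right). Points are the 3 mock (blue) and 3 nuclease-treated (red) libraries, and black bars show mean and SD; on the left the mock points lie between 19.9 and 24.9% and the treated points between 46.6 and 52.2%, and on the right the groups overlap.

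Held-out coverage was compared the same way, as the log2 ratio of the median in regions chosen as fragmented to that in regions with 1 peak in all 4 chosen libraries. It was 0.42, 0.46 and 0.45 in mock replicates 1, 2 and 3 and 0.26, 0.17 and 0.26 in treated replicates 1, 2 and 3. The groups did not overlap, and the means of 0.44 ± 0.02 and 0.23 ± 0.06 (SD, n = 3 each) differed by -0.21 on the log2 scale (exact two-sided permutation p = 0.1, adjusted p = 0.15). With single peaks under 2000 bp, chosen regions thus stood above unsplit ones in both groups, and by less after treatment. These regions were also wider than the unsplit ones. With the single peak limited to 1000 bp, chosen regions stood below unsplit ones in both groups. The means were then -0.245 in mock and -0.117 after treatment, a difference of 0.13. The held-out values share libraries and inputs, so the test takes them as more independent than they were.

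The strongest reverse region split in all 3 mock lists, on chromosome 2 from 76485183 to 76487031, shows the other kind of split. Its mock highest pieces reached 27.5, 34.0 and 26.7 times background beside other pieces of 7.99, 9.41 and 7.04. The single treated peaks stood at 17.1, 15.0 and 15.2 times background. They measured 477, 834 and 1490 bp, so the treated peak of replicate 3 alone joined what the mock lists held apart, and the remaining treated libraries lacked the second piece. Next came regions on chromosome 8 from 123007139 to 123009151 and from 5639449 to 5640941, with treated coverage of 14.5 ± 3.98 and 12.9 ± 1.32 times background (SD, n = 3 each). Reverse regions were weaker as a class, with 10.7 ± 0.290 times background in mock and 9.10 ± 0.210 after treatment (SD over library medians, n = 3 each).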

How the data were processed

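Each deposited file lists the peaks of 1 ChIP library, called by the authors with MACS2 against the pooled input of its condition, per the names in the files. The submitters' processing notes give Bowtie2 2.2.8, SAMtools 1.3.1, deepTools 2.4.3, MACS2 2.1.1, bedtools 2.25.0 and mm9, without parameters. The fold deposited for each peak is a ratio of summit coverage to local background. The authors' p and q stand as −log10 values, and their score repeats the −log10 q on a scale of whole numbers.

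Summit coverage was recovered as the whole number, up to 700 fragments, that, with the local background implied by the fold, gives the −log10 p within 0.001. It was recovered for all peaks but 1 and divided by the most frequent local background of the list. Python 3.11.15, pandas 2.3.3 and scipy 1.17.1 were used, and the steps were tested on simulated data. Groups came from sample titles. Library values were compared by exact permutation over 20 label orders. Alternatives changed the peaks used, the width limit, the number of split libraries and the libraries.

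Members and rules were chosen with earlier results of these data known. Named regions are, among members split in all 3 treated libraries, the 12 of highest mock coverage, the 6 of longest gap and the 6 of longest gap with the mean mock summit in every gap, and the 6 reverse regions of highest treated coverage. Depth limits precision, since a median summit rests on 16 to 18 fragments and the lists give no totals.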

Additional observations from a re-analysis of the deposited data

How the results depend on the processing

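Of 142 alternative values, 69 were classed as unchanged, 68 as moved and 5 as changed in sign. A count of regions, or the ratio of counts, was classed as moved only beyond a factor of 1.5 from the main value. So 738 members without mock replicate 1 and 384 with the overlap rule were classed as unchanged from 536. The ratio of 3.30 without a width limit was likewise classed as unchanged from 2.21. Other values were judged by their spread, their Wilson interval or the side of the test. The cause of each shift was not tested unless the setting itself gives it. With peaks of −log10 q of at least 6.59, 107 fragmented and 149 reverse regions were found (ratio 0.718; 0.717% of eligible regions), with 2.1% of mock summits in the gap. With each list cut to its 62161 best peaks the reverse class fell to 158 (ratio 3.37; 1.96%), 4.06% of summits were in the gap and the held-out reverse difference was 3.33 points. Joining peaks within 300 bp gave 1.34% and a median gap of 394 bp, since shorter gaps are then closed. With pieces overlapping all single peaks, the reverse class held 25 regions (ratio 15.4; 1.21%; gap 330 bp). With a 1000 bp limit there were 32 and 101 regions (ratio 0.317; 0.135%), with 69.2% of summits in the highest piece and 9.23% in the gap, and held-out differences of -15.7 points, 3.10 points for the reverse and 0.13 in log2 coverage. Without a width limit there were 890 members (2.68%; gap 346 bp; 3.71% of summits in the gap). Split in 3 of 3 libraries were 109 and 29 regions (ratio 3.76; 0.466%; gap 353 bp; 74.8% of summits in the highest piece and 3.47% in the gap). The highest piece held 74.1% for the median mock summit and 68.6% when ranked by −log10 q. The setting added after seeing the data, local background up to 2 times the genome-wide level, gave 318 members (ratio 1.14; 1.25%; gap 344 bp; 66.4% in the highest piece; 5.93% in the gap).

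Leaving out 1 library leaves 2 to be split or single, so counts shift by construction: 237 to 738 fragmented (lowest without nuclease replicate 1, highest without mock replicate 1), 65 to 408 reverse, ratio 0.584 to 11.4 and 0.901 to 2.06% of eligible regions. Without nuclease replicate 1, 2 or 3 there were 237, 254 and 262 members, and without mock replicate 1, 2 or 3 there were 738, 704 and 682. The median gap ran from 338.5 to 346 bp, the highest piece held 69.3 to 72.0% and the gap 3.58 to 5.68% of summits. For the held-out differences only the value of the library was dropped from the means, and it still took part in choosing regions. These differences ran from 25 to 27.8 points for the fragmented choice, -2.98 to 2.75 for the reverse and -0.23 to -0.18 in log2 coverage. With the replicate number as a replicate block, the held-out differences of 26.5 points and -0.21 in log2 coverage had an exact permutation p of 0.25, the smallest that block allows, and the reverse difference of -0.934 points had p = 1. Log2 coverage of same-numbered mock and treated libraries correlated at r = 0.778, 0.759 and 0.774 for replicates 1, 2 and 3. Other pairs of a mock and a treated library gave 0.749 to 0.781, so coverage does not single out the same-numbered pairs. It cannot show whether they were prepared together.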

Other observations

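Members were spread over all autosomes. The share of eligible regions that was fragmented ran from 0.991% on chromosome 16 (9 of 908; 95% Wilson interval 0.522 to 1.87%) to 2.77% on chromosome 13 (24 of 867; 1.87 to 4.09%). Chromosome 11 had the most members, 62 of 3185 eligible regions. No test was made across chromosomes.

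Members lay closer to other TET1 regions than unsplit regions did. The nearest other region was a median of 997 bp away (quartiles 404 and 4913 bp), against 1552 bp for unsplit regions and 1962.5 bp for unsplit regions with a mean mock width of 1000 to under 2000 bp. Within 1 kb there was another region for 50% of members, 41.2% of unsplit regions and 63.6% of reverse regions. In 14 members a treated library held 3 pieces, as on chromosome 17 from 74693297 to 74695392, where treated replicate 2 did; this example was chosen after its values were seen.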
